A study of Rattus norvegicus with 6 samples.

Results

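The Egr genes (Egr1, Egr2, Egr3 and Egr4) and the Nr4a genes (Nr4a1, Nr4a2 and Nr4a3) encode transcription factors of the immediate early class. They were chosen by family name, and all 7 were found among the 14506 genes measured, each by 1 probe set whose annotation gives that gene alone. The tissue was the endosalpinx, the mucosa that lines the oviduct, taken from 6 adult rats of the Sprague-Dawley strain and hybridised as 1 rat per array. The 3 mated females joined fertile males in their cages on the evening of pro-estrus, at 2200 h, carried sperm or a vaginal plug at a check 30 min later, and were killed 3 h after mating. The 3 unmated females were kept isolated and killed at the same clock time, 0130 h of estrus. The labels add abundant semen in the uterus for the mated animals and uterine edema for the unmated ones. Company of a male, handling and mating cannot be told apart in this design. The labels call the samples of a group biological replicates and give each a rat number of its own.

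Immediate early genes are transcribed within minutes of a stimulus from factors that are already in the cell, and most of their transcripts are short-lived. Egr proteins bind GC-rich DNA through zinc fingers and are held in check by the corepressors Nab1 and Nab2; their genes respond to growth factor signalling through ERK kinases, Elk proteins and serum response factor (SRF). Nr4a proteins are orphan nuclear receptors that bind DNA as monomers or dimers without an established natural ligand, and their genes respond strongly to cyclic AMP through CREB. Both families are known in reproductive tissues mainly from the ovary, for their response to the ovulatory surge of gonadotropin.

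No member passed the test at 3 h after mating. Nr4a3 lay higher in mated rats by 0.31 on the log2 scale, the largest difference among the members, and Egr4 and Nr4a2 lay higher by 0.18 each. Nr4a1 and Egr1, the most widely studied gene of each family, lay lower by 0.17 and 0.13, and Egr2 and Egr3 differed by under 0.1. Over all genes 0 (0%) had an adjusted p under 0.05 by limma, a linear model that shares variance information between genes, with Benjamini-Hochberg adjustment; 663 (4.57%) had an unadjusted p under 0.05. Among the members 1 of 7, Nr4a3, met that looser rule. As whole tissue was measured, fewer cells of a type and less RNA per cell cannot be told apart.

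The signal of each member was modest. Values are log2 signals, so a difference of 1 is a doubling. Odorant and pheromone receptor genes, known from sensory neurons, gave a guide to background: their 95th percentile was a log2 signal of 7.13. Egr2 lay within that receptor range on each of the 6 arrays, Nr4a3 lay above it on 5, and the other 5 members lay above it on all 6. Across genes, the mean level of the members stood between the 25.5th percentile for Egr2 and the 46.5th for Egr4, so each was dimmer than the median gene. Dim probe sets give compressed differences on such arrays, and a small difference in these genes is measured close to background.

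The labelled tissue was checked against epithelial markers. Of those of ciliated epithelium 7 of 8 lay above the receptor range, and of secretory epithelium 9 of 9, against 71.1% of all genes; Foxj1, the master regulator of motile cilia, had means of 10.84 ± 0.11 without and 10.84 ± 0.14 with mating (SD, n = 3 each). For other cells the counts were 7 of 10 for fibroblasts, 7 of 8 for smooth muscle, 8 of 10 for macrophages, 5 of 8 for endothelium, 5 of 8 for nerve and glia, 4 of 4 for mesothelium, 2 of 10 for neutrophils and 4 of 10 for lymphocytes. Those for fibroblasts, endothelium, nerve and glia, neutrophils and lymphocytes are near or below the share of all genes. They do not show that these cells were present. The first principal component, with 30.9% of the variance, put mated replicate 1 at 12.9, far from mated replicates 2 and 3 at -11.0 and -10.9; the unmated arrays lay at 3.59, 8.25 and -2.89.

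**Figure D1:**
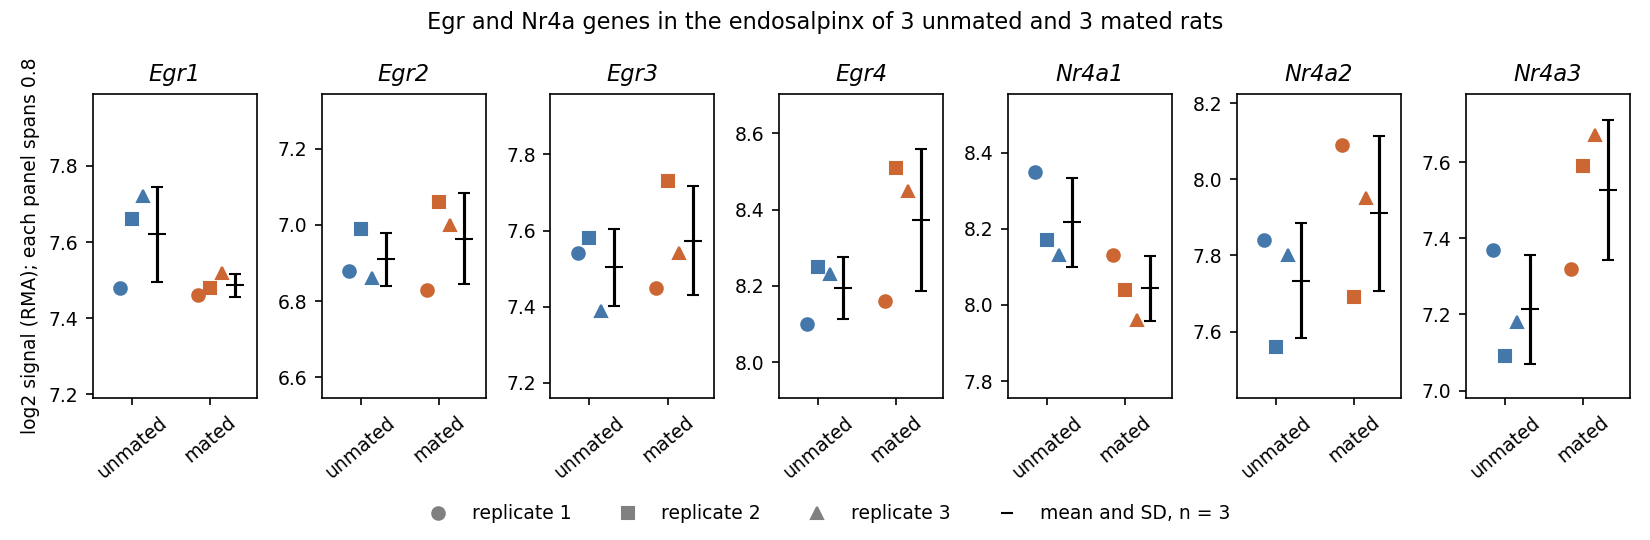
Log2 signal of each Egr and Nr4a gene (one panel per gene, each spanning 0.8 log2 units) on the 3 unmated and 3 mated arrays; points are rats, with symbols for replicate numbers, and black bars are the mean and SD. The groups overlap in all 7 panels, and in the Nr4a3 panel mated replicate 1, at 7.32, lies below unmated replicate 1, at 7.37.

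Egr1, the zinc finger factor also known as zif-268 or Krox-24, is the member most often used as a mark of recent stimulation. Its log2 signal was 7.48, 7.66 and 7.72 in unmated replicates 1 to 3 and 7.46, 7.48 and 7.52 in mated replicates 1 to 3. The mated rats lay close together at the low end, and unmated replicate 1 lay among them, so the groups overlapped by that single animal. Mean levels were 7.62 ± 0.12 without and 7.49 ± 0.03 with mating (SD, n = 3 each), a log2 difference of -0.13 (SE 0.08, 95% confidence interval -0.32 to 0.05, adjusted p = 0.984 by limma). In fold terms the interval runs from 0.801 to 1.04. When 1 array was left out, the difference ran from -0.20 without unmated replicate 1 to -0.083 without unmated replicate 3, where the upper limit of the interval was 0.12.

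Egr2, or Krox20, is best known for its part in myelination and hindbrain patterning. On the log2 scale it was at 6.88, 6.99 and 6.86 in unmated and 6.83, 7.06 and 7 in mated rats, all within the receptor range. The mated values lay on both sides of the unmated ones. The log2 difference was 0.05 (95% confidence interval -0.14 to 0.25), and it was 0.12 without mated replicate 1 and 0.0050 without mated replicate 2.

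Egr3, which acts in muscle spindles and in lymphocytes, is itself a target of other Egr proteins in some cells. It gave log2 signals of 7.54, 7.58 and 7.39 in unmated and 7.45, 7.73 and 7.54 in mated rats. Only mated replicate 2 lay above all unmated rats. The log2 difference was 0.07 (95% confidence interval -0.15 to 0.29), and it was -0.0083 without mated replicate 2, so the direction rests on that array.

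Egr4, or NGFI-C, is the Egr gene known above all from neurons and from the germ cells of the testis. Its log2 signal was 8.10, 8.25 and 8.23 in unmated rats and 8.16, 8.51 and 8.45 in mated rats. Mated replicates 2 and 3 lay above every unmated rat, while mated replicate 1 lay below unmated replicates 2 and 3. Mean levels were 8.19 ± 0.08 without and 8.37 ± 0.19 with mating (SD, n = 3 each), a log2 difference of 0.18 (SE 0.10, 95% confidence interval -0.06 to 0.42, adjusted p = 0.984 by limma). Without mated replicate 1 it was 0.29, at an adjusted p = 0.506 by limma, and without mated replicate 2 it was 0.11.

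Nr4a1, or Nur77, is induced by gonadotropins and other hormones in steroid-producing cells and takes part in the death of T cells. Its log2 signal was 8.35, 8.17 and 8.13 in unmated rats and 8.13, 8.04 and 7.96 in mated rats. The lowest unmated and the highest mated value were equal to the deposited precision, so the groups met at 8.13, and every mated rat lay below the unmated mean. Mean levels were 8.22 ± 0.12 without and 8.04 ± 0.09 with mating (SD, n = 3 each), a log2 difference of -0.17 (SE 0.09, 95% confidence interval -0.37 to 0.02, adjusted p = 0.984 by limma). In fold terms the interval runs from 0.774 to 1.02. Without unmated replicate 1 the difference was -0.11, with an upper limit of 0.10, and without mated replicate 1 or unmated replicate 3 it was -0.22. A difference at least as low was found for 4.76% of all genes.

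Nr4a2, or Nurr1, is required for dopamine neurons and is also induced in stimulated macrophages. Signals on the log2 scale were 7.84, 7.56 and 7.80 in unmated rats and 8.09, 7.69 and 7.95 in mated rats. Mated replicates 1 and 3 lay above every unmated rat and mated replicate 2 below unmated replicates 1 and 3. The log2 difference was 0.18 (SE 0.12, 95% confidence interval -0.10 to 0.45, adjusted p = 0.984 by limma), and it was 0.29 without mated replicate 2, 0.087 without mated replicate 1 and 0.090 without unmated replicate 2.

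Nr4a3, or NOR-2 in the rat, acts in muscle metabolism, vascular cells and haematopoiesis. Its log2 signal was 7.37, 7.09 and 7.18 in unmated rats and 7.32, 7.59 and 7.67 in mated rats. Mated replicates 2 and 3 lay above every unmated rat, and mated replicate 1 lay above unmated replicates 2 and 3 but below unmated replicate 1. Mean levels were 7.21 ± 0.14 without and 7.53 ± 0.18 with mating (SD, n = 3 each), a log2 difference of 0.31 (SE 0.11, 95% confidence interval 0.05 to 0.57). This is a fold of 1.24, with an interval from 1.04 to 1.49. The unadjusted p was 0.0243 and the adjusted p = 0.984 by limma, and 1.22% of all genes had a difference as high. The unadjusted p was above 0.05 without unmated replicate 2 (0.0851), unmated replicate 3 (0.0655), mated replicate 2 (0.0732) or mated replicate 3 (0.0874). The difference lay between 0.24 and 0.42 over 14 alternatives, whose adjusted p by limma ran from 0.506 to 1. Both ends of that range came from leaving out 1 array, and several alternatives could not change the difference.

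**Figure D2:**
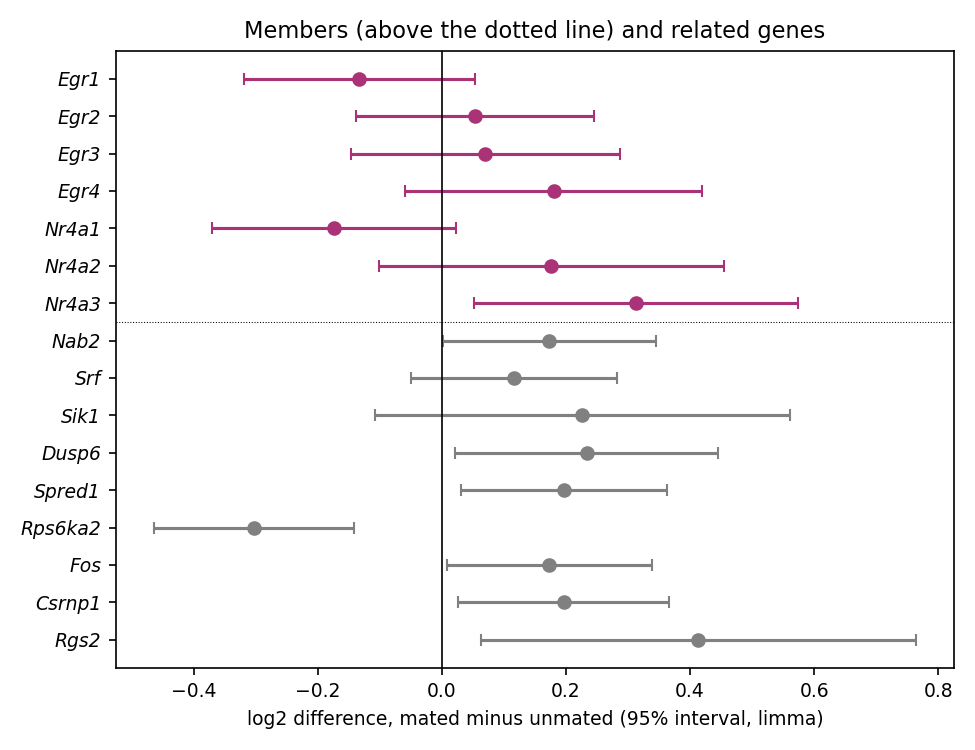
Log2 difference of mated minus unmated rats with its 95% confidence interval by limma, for the 7 members (purple, above the dotted line) and for 9 related genes (grey). Of the members only Nr4a3 has an interval that leaves out 0 before adjustment, and Egr1 and Nr4a1 lie to the left of 0.

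Set side by side, the families gave similar counts. Of the Egr genes 3 of 4 and of the Nr4a genes 2 of 3 had a higher mean in mated rats, against 53.2% of all genes; 1 of 4 and 1 of 3 had a lower mean, against 45.5%. The median log2 difference was 0.06 for the Egr genes, 0.18 for the Nr4a genes and 0.01 for all genes. Each median hides a member of the opposite direction, Egr1 and Nr4a1. The Egr median minus the Nr4a median was -0.12, and it was -0.28 without mated replicate 2, 0.04 without mated replicate 1 and 0.01 without unmated replicate 2, so which family lay higher rests on single animals. In neither family did any gene have groups without overlap, which 8.47% of all genes had (5.24% higher and 3.23% lower in mated rats).

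The mean deviation of a family from its unmated mean gives the same picture by animal. For the Egr genes it was -0.06, 0.06 and -0.01 on the unmated arrays and -0.08, 0.14 and 0.07 on the mated arrays. For the Nr4a genes it was 0.13, -0.11 and -0.02 on the unmated and 0.13, 0.05 and 0.14 on the mated arrays. The families differed in which animal stood low: unmated replicate 1 and mated replicate 1 were the lowest arrays for the Egr genes, and unmated replicate 2 was the lowest for the Nr4a genes. With single probe sets per gene, these means rest on 4 and 3 values for each array.

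Members differed in how alike their patterns were over the 6 arrays. Likeness was measured as the root mean square difference between the deviations of 2 genes from their own means, in log2 units, where a small value means a similar course. Of 21 pairs of members, Egr2 and Egr3 were the most alike (0.054), then Egr2 and Egr4 (0.087) and Egr3 and Egr4 (0.11). Egr1 stood 0.14 from Egr2 and 0.19 from Egr4. Nr4a1 and Nr4a3, of 1 family, were the pair least alike (0.29). Genes that vary little are close to each other by this measure, and Egr2 varied least among the members, with a root mean square deviation of 0.084, against 0.21 for Nr4a3.

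**Figure D3:**
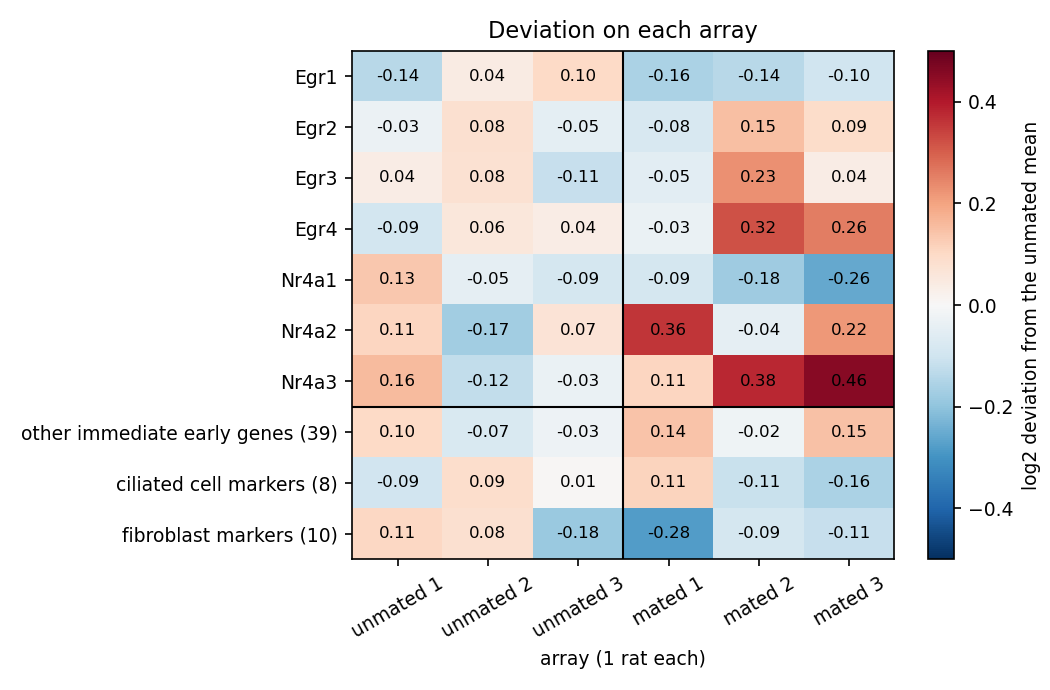
Deviation from the unmated mean, in log2 units, on each of the 6 arrays (columns, 1 rat each) for the 7 members and for the mean of 3 gene lists with their number of genes in brackets. Egr4 and Nr4a3 are highest on mated replicates 2 and 3, at 0.26 to 0.46, while the ciliated cell markers are at -0.11 and -0.16 there and at 0.11 on mated replicate 1.

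Mated replicate 1 set the spread of several members. For all 4 Egr genes and Nr4a3 it was the lowest mated array, and for Nr4a1 and Nr4a2 the highest. On the first principal component the same array lay far from mated replicates 2 and 3, on the side of unmated replicates 1 and 2. The ciliated markers, 8 measured, averaged 0.11 above their unmated mean on mated replicate 1 and -0.11 and -0.16 on mated replicates 2 and 3, with unmated arrays at -0.09, 0.09 and 0.01. Their mean log2 signal over the 8 genes ran from 10.04 to 10.31 over the 6 arrays. Of the fibroblast markers 10 of 10 lay lower in mated rats as deposited and 8 of 10 after a second quantile normalization. Their mean stood at -0.28 on mated replicate 1 and at -0.09 and -0.11 on mated replicates 2 and 3. The unmated arrays stood at 0.11, 0.08 and -0.18, so unmated replicate 3 lay below mated replicates 2 and 3. The part of these cell types in the values of the members was not tested.

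Among 3 relations examined across the 6 arrays, that of Egr1 with Fos was the closest. Fos is a subunit of AP-1 and an immediate early gene itself. Both groups are pooled in this relation, and since Fos lay higher and Egr1 lower in mated rats, it includes the difference between the groups. It had Pearson r = -0.73 (exact permutation p = 0.117, adjusted 0.35) and Spearman rho = -0.84 (exact permutation p = 0.0444, adjusted 0.133). Without unmated replicates 2 and 3, the arrays farthest from the median of Egr1, r was -0.54. Egr1 and Nr4a1 had r = 0.0055 (exact permutation p = 0.994, adjusted 0.994) and rho = 0 (exact permutation p = 1, adjusted 1), and r was -0.52 without the same arrays. Nr4a1 and Fos had r = -0.38 (exact permutation p = 0.475, adjusted 0.713) and rho = -0.49 (exact permutation p = 0.344, adjusted 0.517), with r = -0.63 without unmated replicate 1 and mated replicate 3. All p-values are two-sided and adjusted over the 3 relations by the Benjamini-Hochberg method; none passed, and groups of 3 are too small for a value within a group.

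The genes whose patterns lay closest to each member were of varied kinds. For Egr1 they were Tspan3 (root mean square difference 0.019 over 6 arrays), Oaz2 (0.020) and Psmd7 (0.025). For Egr2 they were Lmo4 (0.019), Tent5b (0.019) and Dcbld2 (0.024), and for Egr3 Wbp4 (0.024), Oxt (0.027) and Map2k6 (0.034). For Egr4 they were Ccdc63 (0.030), Oprd1 (0.036) and Qsox1 (0.038). Nr4a1 lay closest to Ssh2 (0.031), Tacc1 (0.039) and Klhl5 (0.042), Nr4a2 to Pdcl3 (0.042), Coro1c (0.042) and Ripk3 (0.047), and Nr4a3 to Dok3 (0.047), Rgr (0.068) and Tram1l1 (0.069). No other member and no gene of the immediate early list was among these 21. Such places are few beside the 14506 genes measured. The absence therefore cannot show whether members and other immediate early genes vary together.

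Nab1 and Nab2 bind Egr proteins and repress their activity, and Nab2 is itself switched on by Egr proteins in many cells. The log2 signal of Nab2 was 9.23, 9.22 and 9.27 in unmated rats and 9.31, 9.42 and 9.51 in mated rats, so the groups did not overlap. Such a gap in this direction was found for 5.24% of all genes. Nab2 differed by 0.17 (95% confidence interval 0.0015 to 0.35; unadjusted p = 0.0485, adjusted p = 0.984 by limma), and Nab1 by 0.08. The direction of Nab2 was thus opposite to that of Egr1 and the same as that of Egr4.

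The other genes upstream of both families were counted from lists. Over all genes 53.2% lay higher in mated rats. Of the SRF and Elk group, a list of 8 names, 4 of 4 measured genes lay higher after mating. Their median was 0.07, and Srf led at 0.12 (95% confidence interval -0.05 to 0.28). Of the CREB group 7 of 10 were higher at a median of 0.06, led by the kinase gene Sik1, a CREB target that restrains CREB coactivators, at 0.23 (-0.11 to 0.56). The mean deviation of the CREB group was nonetheless highest on unmated replicate 1, at 0.107, against 0.085, 0.034 and 0.021 on the mated arrays. None of these 14 genes had an unadjusted p under 0.05, which 3.02% of all genes had with a higher and 1.55% with a lower mean. Of the partners of Nr4a receptors 5 of 7 were higher, or 4 of 7 after a second quantile normalization, and Rxra, a retinoid X receptor, had the smallest p, with a log2 difference of 0.12. The mean deviation of these partners was -0.02, 0.12 and -0.05 on mated replicates 1 to 3, so only mated replicate 2 lay above the unmated mean.

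In the ERK group, kinases and their phosphatases and inhibitors, 12 of 16 genes lay higher (53.2% of all genes), at a median of 0.11, and 3 of 16 had an unadjusted p under 0.05 (4.57% of all genes). Dusp6, a phosphatase that inactivates ERK, was at 9.62, 9.46 and 9.44 in unmated rats and 9.88, 9.61 and 9.73 in mated rats, a difference of 0.23 (95% confidence interval 0.02 to 0.45). Spred1, an inhibitor of Ras and Raf signalling, was at 9.70, 9.69 and 9.82 in unmated and 9.89, 9.91 and 10 in mated rats, a difference of 0.20 (0.03 to 0.36) with no overlap, as for 5.24% of all genes. In the other direction lay Rps6ka2, a ribosomal S6 kinase, at 9.36, 9.41 and 9.42 in unmated and 9.17, 9.09 and 9.02 in mated rats, a difference of -0.30 (-0.46 to -0.14). All 3 had an adjusted p = 0.984 by limma.

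Target genes were counted in the same way. Of 23 measured genes that Egr proteins are known to regulate, 18 were higher in mated rats (16 after median centring) at a median of 0.08, where 53.2% of all genes were higher. An unadjusted p under 0.05 was found for 2 of 23, Nab2 and Th, both higher, against 3.02% of all genes. Th, tyrosine hydroxylase, is on both target lists; it differed by 0.19 (95% confidence interval 0.0018 to 0.38), but its signal lay within the receptor range. Of 22 measured Nr4a target genes 17 were higher (14 after a second quantile normalization) at a median of 0.06, and only 11 of 22 lay above the receptor range. Spp1, osteopontin, had the largest difference of that list at 0.84, and was named after its values were seen. It was at 10.74, 8.41 and 8.72 in unmated and 11.48, 10.33 and 8.58 in mated rats, so its 95% confidence interval ran from -0.99 to 2.67.

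Of the other immediate early genes 32 of 39 were higher in mated rats (29 after median centring), 6 were lower and 1, Per1, had equal means; 53.2% of all genes were higher. Their median was 0.06, and 3 of 39 had an unadjusted p under 0.05, all higher, against 3.02% of all genes. Fos was at 8.40, 8.30 and 8.39 in unmated and 8.60, 8.55 and 8.46 in mated rats, a difference of 0.17 without overlap, as for 5.24% of all genes. Csrnp1, a nuclear protein first found as a target of axin, was at 7.72, 7.64 and 7.56 in unmated and 7.83, 7.78 and 7.90 in mated rats, a difference of 0.20 (95% confidence interval 0.03 to 0.37). Rgs2, which damps signals of Gq-coupled receptors, was at 9.55, 8.94 and 9.05 in unmated and 9.71, 9.53 and 9.54 in mated rats, a difference of 0.41 (0.06 to 0.76). Its groups overlapped at unmated replicate 1, the unmated array on which the list as a whole was highest (0.10, against -0.07 and -0.03). On mated replicates 1 to 3 the list as a whole stood at 0.14, -0.02 and 0.15. Mated replicate 2 thus lay below the unmated mean and below unmated replicate 1. Egr1 and Nr4a1 thus lay lower while 32 of 39 genes of their class lay higher; that this sets them apart was not tested.

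The promoter windows show which elements the members share. RefSeq's table of promoters (build GRCr8, from 250 bases before to 50 bases after an annotated start) held 5 of the 7 members, with Egr3 and Nr4a3 missing. Each window was searched on both strands for the CArG box, which SRF binds, for the core TGACG of the cyclic AMP response element (CRE) and the full element TGACGTCA, which contains it, for the EGR site GCGNGGGCG and for the Nr4a monomer site AAAGGTCA. The windows of Egr2, Egr4 and Nr4a1 are shown, 5′ to 3′, since these genes lay near 0, above it and below it, with CArG boxes and CRE cores in capitals.
Egr2 (GRCr8, chr20:21054392-21054691, minus strand): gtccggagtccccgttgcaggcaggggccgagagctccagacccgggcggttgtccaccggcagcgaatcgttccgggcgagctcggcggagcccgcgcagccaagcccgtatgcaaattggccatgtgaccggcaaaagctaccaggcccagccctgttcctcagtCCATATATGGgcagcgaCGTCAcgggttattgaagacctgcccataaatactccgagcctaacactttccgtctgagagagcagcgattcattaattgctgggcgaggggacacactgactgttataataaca
Egr4 (GRCr8, chr4:119607768-119608067, minus strand): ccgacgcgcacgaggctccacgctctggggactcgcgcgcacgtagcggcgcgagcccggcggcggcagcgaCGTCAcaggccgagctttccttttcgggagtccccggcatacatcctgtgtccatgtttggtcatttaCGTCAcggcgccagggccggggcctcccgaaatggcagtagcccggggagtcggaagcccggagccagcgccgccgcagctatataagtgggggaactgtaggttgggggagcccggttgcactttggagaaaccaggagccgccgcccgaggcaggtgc
Nr4a1 (GRCr8, chr7:134259888-134260187, plus strand): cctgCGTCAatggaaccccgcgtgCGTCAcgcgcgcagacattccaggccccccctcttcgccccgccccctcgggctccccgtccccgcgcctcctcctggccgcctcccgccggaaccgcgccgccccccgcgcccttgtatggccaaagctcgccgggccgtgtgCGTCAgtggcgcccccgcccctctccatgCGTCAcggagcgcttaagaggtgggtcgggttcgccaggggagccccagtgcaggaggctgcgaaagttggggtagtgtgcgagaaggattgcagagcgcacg

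All 5 windows held the CRE core, against 22.0% of 27457 windows of the same length, and none of the 5 held the full element (1.91% of all windows). Nr4a1 held 4 cores, Egr1 and Egr4 2 each, and Egr2 and Nr4a2 1 each. A CArG box was found in Egr1 and Egr2, against 1.64% of all windows. In both genes the letters CCATATATGG stand from -83 to -74 relative to the start, with a CRE core from -66 to -62, and Egr1 has a further box, CCATATTAGG, from -105 to -96. Nr4a1 held the EGR site from -73 to -65 (5.29% of all windows), and no member held AAAGGTCA (1.29%). Of the other immediate early genes 28 had a window, of which 14 held the CRE core and 2 the CArG box. The windows of Nr4a1 and Egr4 have a GC content of 72.3% and 68%, where the median window has 52.3%. A match is a match of letters and shows no binding in these rats.

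**Figure D4:**
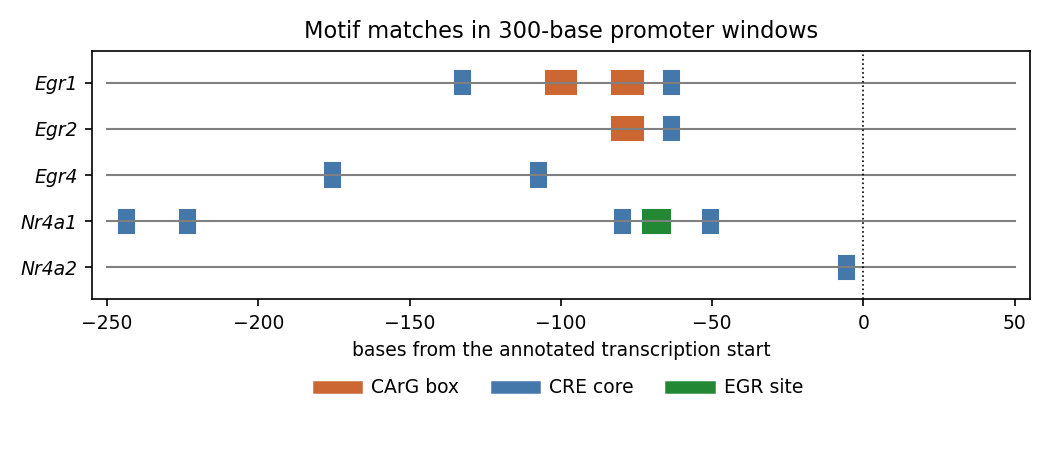
Matches to the CArG box (orange), the CRE core (blue) and the EGR site (green) on either strand in the windows of 5 members, by distance in bases from the annotated start. Egr1 and Egr2 share a CArG box and a CRE core at the same distances, and the windows of Egr4, Nr4a1 and Nr4a2 hold no CArG box.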

How the data were processed

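RNA of 6 rats was hybridised to Affymetrix whole-transcript arrays, per the labels' protocols. The log2 signals deposited by the authors come from RMA (background correction, quantile normalization, probe summary) in Affymetrix Expression Console, per the submitters' processing notes, and were used as they stand; RMA hides a shift of most transcripts and compresses dim ones. Of 29214 probe sets, 15310 had 1 gene symbol, 323 several and 13581 none listed; the brightest per gene was kept, which left 14506 genes. Of the probe sets with 1 symbol, 15279 matched the RefSeq gene table (GRCr8) and 0 symbols changed.

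Groups were compared with limma 3.58.1 (R 4.3.3; lmFit, eBayes) on 6 arrays, two-sided, with Benjamini-Hochberg adjustment over all genes at 0.05; the procedure was tested on simulated data. Each p-value by limma sets a difference against the spread between these animals, with variance information shared between genes. The number of arrays limits precision. Members and lists (220 of 250 entries measured) were chosen with earlier results of these data known. Named are all members, each list's gene of smallest p, pathway genes at an unadjusted p under 0.05, and the 3 genes closest in pattern to each member; Foxj1, Nab1, Per1 and a few marked in the text stand outside this rule. Alternatives were the replicate block, trend, robust fit, array weights, scalings, filters, probe set averaging and leaving out each array.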

Additional observations from a re-analysis of the deposited data

How the results depend on the processing

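No member passed the adjusted threshold under any alternative that kept it. Leaving out the dimmest 50% of genes removed all 7 members, so 14 alternatives gave values. Egr1 and Nr4a1 stayed lower in mated rats under all 14, and Egr2, Egr4, Nr4a2 and Nr4a3 higher. The replicate block, trend, robust fit, filter of the dimmest 25% and probe set averaging leave a member's difference unchanged by construction. Only array weights, both scalings and leaving out an array could alter a direction. Egr3 ran from -0.0083 to 0.13 when 1 array was left out. The labels do not say whether replicate numbers pair the animals. Same-numbered arrays had correlations of deviations of 0.0035, -0.083 and 0.074, which with 3 arrays per group cannot show how animals were handled. With the replicate block 672 genes had an unadjusted p under 0.05, against 663 without it. That count was 1207 with array weights and 262 without the dimmest 50% of genes, which tests fewer genes, and ran from 432 to 1403 when 1 array was left out. With array weights 3 members (Egr4, Nr4a1 and Nr4a3) had an unadjusted p under 0.05. Leaving out 1 array moved the Egr median over -0.0017 to 0.13, the Nr4a median over 0.087 to 0.28 and the Egr median minus the Nr4a median over -0.28 to 0.039; the cause was not tested. The relations of Egr1, Nr4a1 and Fos were also computed under both other scalings, chosen after seeing the data, and each r over all 6 arrays kept its sign. Without unmated replicates 2 and 3, r of Egr1 with Nr4a1 was -0.52 as deposited, 0.13 after a second quantile normalization and -0.19 after median centring. The rho of Egr1 with Fos was -0.66 (exact permutation p = 0.175) after the former scaling and -0.87 (exact permutation p = 0.0333) after the latter. Dim signals and 3 rats per group limit all of these values.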

Other observations

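Markers of other cell types that could hold immediate early transcripts were measured beside the members. Of 8 endothelial markers 5 lay higher in mated rats as deposited and 4 under either other scaling, and Tie1, an angiopoietin co-receptor, had means of 7.85 ± 0.14 without and 8.18 ± 0.16 with mating (SD, n = 3 each). Over all genes 53.2% lay higher and 45.5% lower as deposited. An unadjusted p under 0.05 was found for 2 of 8 endothelial markers higher and 2 of 8 lower in mated rats. The shares of all genes were 3.02% higher and 1.55% lower. The lower markers were Tek, the angiopoietin receptor, at -0.29 and Emcn, endomucin, at -0.22. Both lay within the receptor range and were named after their values were seen. Of 10 macrophage markers 7 lay lower, with Lyz2, lysozyme of myeloid cells, at 10.20 ± 0.25 and 9.93 ± 0.19. Dpt, the matrix protein dermatopontin, had the smallest p of the fibroblast list, with a log2 difference of -0.46 (95% confidence interval -0.69 to -0.22). In the neutrophil list, where 2 of 10 markers lay above the receptor range, Elane, neutrophil elastase, had the smallest p, with a log2 difference of 0.22 (0.07 to 0.38) within that range. Ltf, lactoferrin, named after its values were seen, had the largest difference of that list, 0.39 (-0.07 to 0.84), and lay above the range. Of the 10 neutrophil markers 7 lay higher and 3 lower in mated rats as deposited, and 5 lay higher under either other scaling. The genes of smallest p, given with their log2 differences, were Nkg7 at -0.23 among lymphocyte markers (4 of 10 higher), S100b at 0.20 among those of nerve and glia (5 of 8 higher), Lmod1 at -0.11 among those of smooth muscle (2 of 8 higher) and Wt1 at -0.09 among those of mesothelium (1 of 4 higher). Muc1, a mucin of the cell surface, had the smallest p of the secretory list, with a log2 difference of 0.19, and Spag6, an axoneme gene, that of the ciliated list, with one of 0.17, where the other 7 genes lay lower. None of these passed the adjusted threshold by limma.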
